A study of Mus musculus with 11 samples.

Results

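A set of 51 genes that cells use to copy and divide their chromosomes was followed in mouse pituitary cells labelled APC-mutant or wildtype. They were chosen as a list of symbols, 23 for DNA replication and its G1/S control and 28 for mitosis, and all 51 were found among the 56941 genes of the deposited table. The 5 APC-mutant libraries (replicates 1, 2, 4, 5 and 6, with the words APC and Lef1 in their titles) and the 6 wildtype libraries (replicates 1 to 6, titled as controls, with the library-name prefixes ROSAJC for 1 to 4 and ROSAE for 5 and 6) hold messenger RNA of cells sorted from pituitary tissue. The sources used here give no allele, Cre driver, age, sex or sorting gate for either group. They do not say whether a library is 1 animal or a pool, so the p-values speak only of variation among libraries, which may in part be technical. Levels of Y-linked genes differed within each group, so its libraries were not all repeats of 1 sample. Their mean log2 CPM (CPM is explained below) was 5.55, 5.69, -0.928, -0.974 and 5.42 in the APC-mutant libraries in replicate order. In the wildtype libraries it was 0.272, 4.52, -1, 4.64, -1 and -0.965, so both groups mixed high and low levels. The series design calls the wildtype cells pituitary stem cells and asks which genes act downstream of mutant APC, a scaffold of the complex that degrades beta-catenin.

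A cell that enters the cycle first loads the MCM helicase on its replication origins, a step called licensing, and then copies its DNA in S phase under cyclin E and cyclin A kinases. E2F transcription factors switch on the replication genes, and the MYBL2 and FOXM1 factors, acting with the MuvB core complex, switch on the mitosis genes later. Mitosis is driven by cyclin B with CDK1 and ends when the anaphase-promoting complex, which is unrelated to the APC tumour suppressor, destroys the cyclins. In the adult pituitary few cells divide, and the transcripts of these genes are commonly read as markers of dividing cells. In bulk RNA a larger share of dividing cells and more RNA per dividing cell cannot be told apart.

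Totals ran from 18082332 to 27280761 counts in the APC-mutant and from 15740857 to 25414443 in the wildtype libraries. Of 20622 genes tested with edgeR's quasi-likelihood test, 59.2% were called, 30.7% higher and 28.5% lower in APC-mutant cells, at a Benjamini-Hochberg adjusted p under 0.05. With upper-quartile scaling 40.8% of all calls were higher, against 51.9% with the scaling used here, and the median log2 fold change of all genes shifted by -0.19. Every APC-mutant library lay above every wildtype library for 23% of genes and below for 20%. The sorted populations also differed in other ways. Of 14 pituitary stem cell markers 4 rose and 7 fell, and the list took 0.0785% to 0.105% of APC-mutant and 0.192% to 0.281% of wildtype counts. All 14 endocrine markers fell (0.0159% to 0.14% of APC-mutant and 6.16% to 9.8% of wildtype counts), with Gh, encoding growth hormone, at 25740 to 65880 CPM in the wildtype libraries. CPM is a gene's count relative to its library's TMM-scaled total. Sox2, a defining stem cell factor, was at 32.8 to 46.9 CPM in APC-mutant and 21.9 to 48.8 CPM in wildtype libraries. Apc itself, summed over the whole gene, was at 42.4 ± 3.004 CPM (SD, n = 5) and 43.2 ± 3.95 CPM (SD, n = 6), which checks no unstated allele, and the Wnt target Axin2 rose by 3.15 ± 0.21 log2 units.

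Markers of other cell types rose in the same comparison. All 10 endothelial markers rose (0.414% to 0.597% of APC-mutant and 0.00144% to 0.00929% of wildtype counts), as did all 10 mesenchymal and pericyte markers (0.0741% to 0.33% and 0.0129% to 0.0285%) and all 10 macrophage markers (0.0268% to 0.178% and 0.00224% to 0.00681%). Of 10 erythroid markers 9 rose (0.209% to 0.391% and 0.000488% to 0.00396%), with Slc4a1 at 0 in every wildtype library. Of 10 lymphocyte and neutrophil markers 3 could be tested, of which 2 rose and 1 fell, and Nkg7, Ly6g and Mpo were at 0 in every wildtype library. Of 10 dissociation stress genes 5 rose (0.431% to 1.04% and 0.145% to 0.724%). Which of these cells carried the replication and mitosis transcripts was not tested.

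Both classes were higher in APC-mutant cells, mitosis genes almost throughout and replication genes with clear exceptions. Of the 28 mitosis genes 27 rose and none fell, with a median log2 fold change of 0.997 and a range of 0.41 to 1.44. Of the 23 replication genes 17 rose and none fell, with a median of 0.72 and a range of -0.08 to 1.62. The background was 59.2% of all tested genes called in either direction and 30.7% called higher, and the median over all of them was 0.02. All 51 members passed the filter on low counts. A rise of at least 1 log2 unit was called for 14 mitosis and 8 replication genes, and for 19.3% of all tested genes. The groups did not overlap for 9 of the 28 mitosis genes and 11 of the 23 replication genes, where 23% of all genes lay wholly above.

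**Figure D1:**
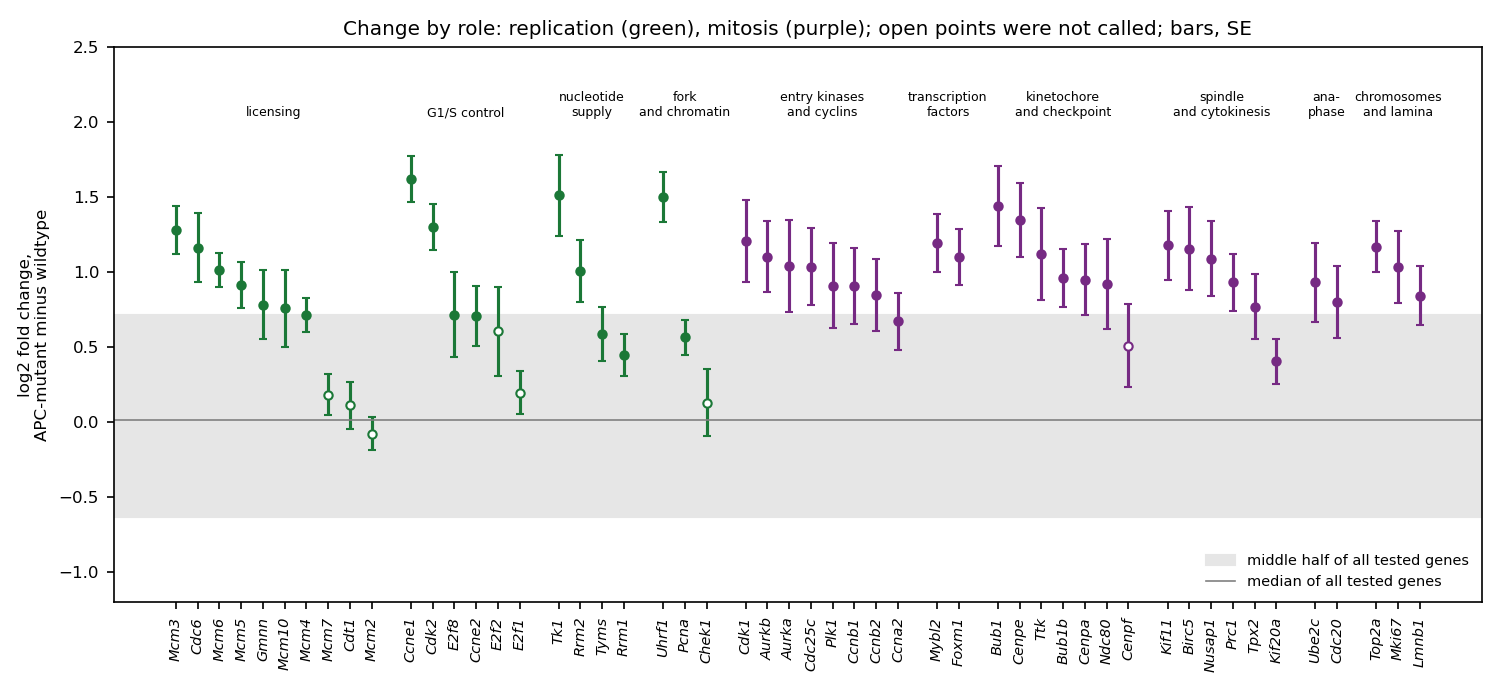
Log2 fold change (APC-mutant minus wildtype, bars SE) of the 51 genes by role, filled where called. Mcm2 at -0.08 is the lowest and Ccne1 at 1.62 the highest, and the grey band from -0.63 to 0.72 spans the lower to the upper quartile of all tested genes.

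The first replication role is licensing, in which the 6 subunits of the MCM helicase are loaded on DNA by CDC6 and CDT1, and geminin blocks a second loading. Of 10 licensing genes 7 rose. Mcm6, a helicase subunit (ENSMUSG00000026355.12, chromosome 1, 128259327 to 128287401, GRCm39), gave 140.0, 170, 171, 188 and 148 CPM across APC-mutant replicates 1, 2, 4, 5 and 6. In the wildtype libraries it had a lowest value of 70.5, a median of 76.1 and a highest of 101 CPM. The groups did not overlap, and the log2 fold change was 1.01 ± 0.12 (SE, edgeR adjusted p = 3.65e-06).

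Mcm2, another subunit of the same ring (ENSMUSG00000002870.9, chromosome 6, 88860456 to 88875762), was at 69.1, 87.1, 73.2, 98.9 and 76.3 CPM in the APC-mutant libraries. The wildtype libraries had a lowest value of 76.4, a median of 83.9 and a highest of 101 CPM. These ranges lay over each other, and the difference of -0.08 ± 0.11 was not called (edgeR adjusted p = 0.58). Only with upper-quartile scaling did Mcm2 pass, at -0.27 and an adjusted p of 0.0496. Mcm7, which shares 12.6% of its exonic bases with another gene, was not called either (0.18 ± 0.13, edgeR adjusted p = 0.256), with 74.3 to 123 CPM against 71.5 to 103 CPM. The remaining subunits rose, Mcm3 by 1.28, Mcm5 by 0.91 and Mcm4 by 0.71 log2 units, and none of these 3 overlapped between the groups.

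The ring holds its 6 subunits in equal number, while their transcripts differed in level per length. In CPM per kilobase, Mcm7 was the highest and Mcm3 the lowest subunit in every wildtype library. However, Mcm7, with its shared exons, led Mcm6 by as little as 16.15 to 15.78 in wildtype replicate 5. In every APC-mutant library Mcm6 was the highest and Mcm2 the lowest. The ratio of highest to lowest subunit ran from 1.65 to 2.24 in wildtype and from 2.83 to 3.48 in APC-mutant libraries. Mcm6 per kilobase was 1.31 to 1.63 times Mcm2 in wildtype and 2.83 to 3.48 times in APC-mutant libraries. These ratios were chosen after the values were seen.

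**Figure D2:**
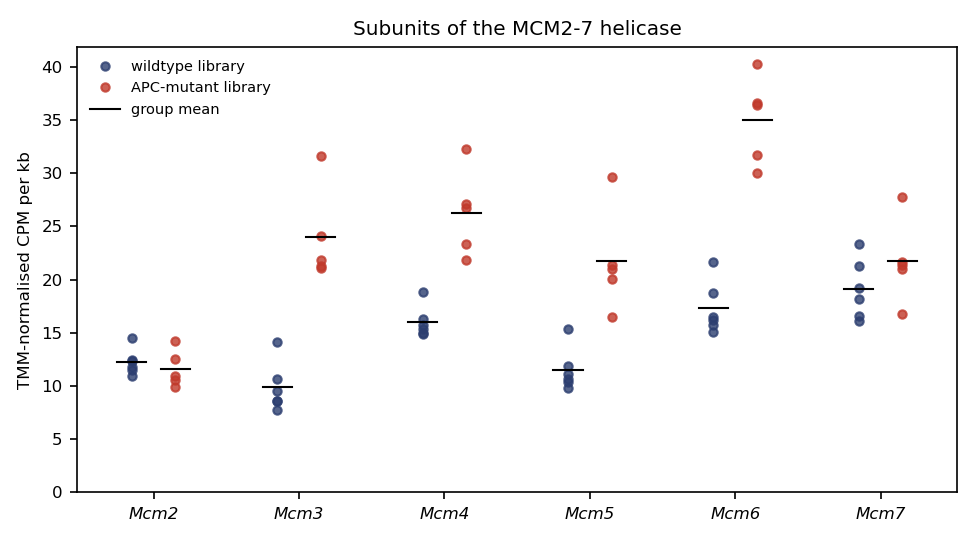
Level of the MCM2-7 subunits in TMM-normalised CPM per kilobase, with a point for each library and a bar at the group mean. Mcm2 averaged 11.6 in APC-mutant and 12.3 in wildtype libraries, and Mcm3 24.0 and 9.87.

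Among the loading factors, Cdc6 rose by 1.16 ± 0.23 log2 units, from a wildtype range of 5.15 to 9.20 CPM to 10.3 to 20.2 CPM in APC-mutant libraries. Cdt1, the other loader, was at 12.5 to 17.7 CPM in APC-mutant and 12.1 to 18.3 CPM in wildtype libraries (0.11 ± 0.16, edgeR adjusted p = 0.563). Gmnn, encoding geminin, rose by 0.78 ± 0.23 and shares 23% of its exonic bases with another gene. Mcm10, a replication initiation factor, rose by 0.76 ± 0.26, but without APC-mutant replicate 5 the value was 0.64 and the call ended (edgeR adjusted p = 0.0578). Its call was lost in 5 of 25 alternative analyses, upper-quartile scaling among them.

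Promoter sequence is shown for subunits that did and did not rise, because E2F sites are the textbook switch of these genes. Sequences are RefSeq's, 180 bases before the annotated start, 5′ to 3′ on the gene's strand, and capitals mark matches to any of the motifs given after them.
Mcm6 (GRCm38.p6, chr1:128359706-128359885, minus strand): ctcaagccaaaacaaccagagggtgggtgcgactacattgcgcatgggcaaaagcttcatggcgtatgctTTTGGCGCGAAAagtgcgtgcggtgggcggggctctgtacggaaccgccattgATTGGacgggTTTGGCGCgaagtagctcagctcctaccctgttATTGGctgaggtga
Mcm5 (GRCm38.p6, chr8:75109329-75109508, plus strand): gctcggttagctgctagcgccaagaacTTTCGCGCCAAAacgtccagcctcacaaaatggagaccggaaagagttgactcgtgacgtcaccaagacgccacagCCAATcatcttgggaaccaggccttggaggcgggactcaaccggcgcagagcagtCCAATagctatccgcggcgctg
Mcm7 (GRCm38.p6, chr5:138171884-138172063, minus strand): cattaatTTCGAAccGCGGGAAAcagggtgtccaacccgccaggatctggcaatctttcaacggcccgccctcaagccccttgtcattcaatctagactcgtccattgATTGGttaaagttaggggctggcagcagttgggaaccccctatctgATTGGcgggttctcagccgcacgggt
Mcm2 (GRCm38.p6, chr6:88898781-88898960, minus strand): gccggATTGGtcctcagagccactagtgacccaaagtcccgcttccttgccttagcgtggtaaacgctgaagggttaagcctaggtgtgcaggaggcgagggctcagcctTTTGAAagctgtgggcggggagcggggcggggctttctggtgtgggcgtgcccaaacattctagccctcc
Windows of 300 bases, from 250 before to 50 after the start, were searched on both strands. The E2F forms were TTTCCCGC, TTTGGCGC, TTTCGCGC and TTTGCCGC, which can overlap each other as in Mcm5 and Mcm6. The cell cycle homology region (CHR) was taken as TTTGAA or TTCGAA, the NF-Y box as CCAAT, and the TCF/LEF motif as CTTTGA, which shares 5 letters with TTTGAA. A window was found for 41 members, and the other 10 are Mcm4, Gmnn, Ccne2, Ccna2, Cdc25c, Aurkb, Foxm1, Kif20a, Tpx2 and Lmnb1. Of the 20 replication windows 8 (40%) held an E2F form, against 2.32% of 27025 genes. These were the windows of Cdc6, Cdk2, Cdt1, E2f2, Mcm3, Mcm5, Mcm6 and Mcm7, of which Cdk2, Cdc6 and 3 helicase subunits rose, while Cdt1, E2f2 and Mcm7 were not called. The TCF/LEF motif was in 0 of the 20 windows, beside 16.2% of all genes. The Mcm2 window held a CHR form and a CCAAT box and none of the E2F forms.

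G1/S control genes rose for 4 of 6. Ccne1, encoding cyclin E1, which starts S phase with CDK2 (ENSMUSG00000002068.17, chromosome 7, 37797409 to 37806959), had the largest change of all 51 genes. Its APC-mutant values were 31.4, 39.0, 43.4, 51.1 and 43.4 CPM, and it lay between 11.7 and 18.0 CPM with a median of 12.7 in the wildtype libraries. The rise of 1.62 ± 0.15 (edgeR adjusted p = 5.17e-07) left a gap between the groups. Cdk2, its kinase partner, rose by 1.30 ± 0.15 from a wildtype mean of 28.9 ± 6.998 CPM (SD, n = 6) to 71.3 ± 5.25 CPM (SD, n = 5). Ccne2, encoding cyclin E2 and sharing 17.4% of its exonic bases with another gene, rose by 0.71 ± 0.20.

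Of 3 E2F factors in the class E2f8 rose and the others were not called. E2f1, an activator of replication genes (ENSMUSG00000027490.18, chromosome 2, 154401327 to 154411812), was at 17.6, 21.8, 16.7, 24.7 and 20.9 CPM in the APC-mutant libraries. In wildtype it lay between 14.5 and 21.4 CPM with a median of 17.8, so the groups overlapped (0.20 ± 0.14, edgeR adjusted p = 0.253). E2f2, a second activator, was at 0.60 ± 0.30 (edgeR adjusted p = 0.0936), and it passed at 0.75 without APC-mutant replicate 1 and at 0.75 without wildtype replicate 2. E2f8, a repressor, passed narrowly at 0.72 ± 0.28 (edgeR adjusted p = 0.04) and shares 20.7% of its exonic bases with another gene. The call was lost on leaving out APC-mutant replicate 1, 4, 5 or 6, or one of wildtype replicates 1, 3, 4 and 5, where values lay between 0.55 and 0.75. E2f8 lost the call in 15 of 25 alternative analyses, among them upper-quartile scaling and library totals only.

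All 4 nucleotide supply genes rose. Tk1, encoding thymidine kinase, rose by 1.51 ± 0.27 log2 units (edgeR adjusted p = 0.000241). Its levels were 44.7, 48.8, 55.2, 79.6 and 59.7 CPM in the APC-mutant libraries and 8.77 to 34.7 CPM, median 19.4, in the wildtype libraries. The ribonucleotide reductase subunits differed in size, Rrm2 rising by 1.01 ± 0.21 and Rrm1 by 0.45 ± 0.14. Tyms, encoding thymidylate synthase, rose by 0.59 ± 0.18. With upper-quartile scaling Rrm1 and Tyms were at 0.25 and 0.39 and were not called.

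At the fork, Pcna, the sliding clamp of the DNA polymerases, had the highest level per length of the replication genes, with means of 65.5 CPM per kilobase in APC-mutant and 44.3 in wildtype libraries. It rose by 0.56 ± 0.11 log2 units (edgeR adjusted p = 0.000712), from 89.0 to 128 CPM in wildtype to 141 to 177 CPM in APC-mutant libraries. AV099323 and other genes cover 20.8% of its exonic bases, and its processed copies Pcna-ps1 and Pcna-ps2 had at most 0 and 47 counts in a library. Uhrf1, which guides DNA methylation to new strands, rose by 1.501 ± 0.17, from 13.2 to 24.8 CPM to 49.1 to 72.7 CPM. Chek1, the S phase checkpoint kinase, was at 8.52 to 15.3 and 6.91 to 15.8 CPM in the respective groups (0.13 ± 0.22, edgeR adjusted p = 0.634).

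**Figure D3:**
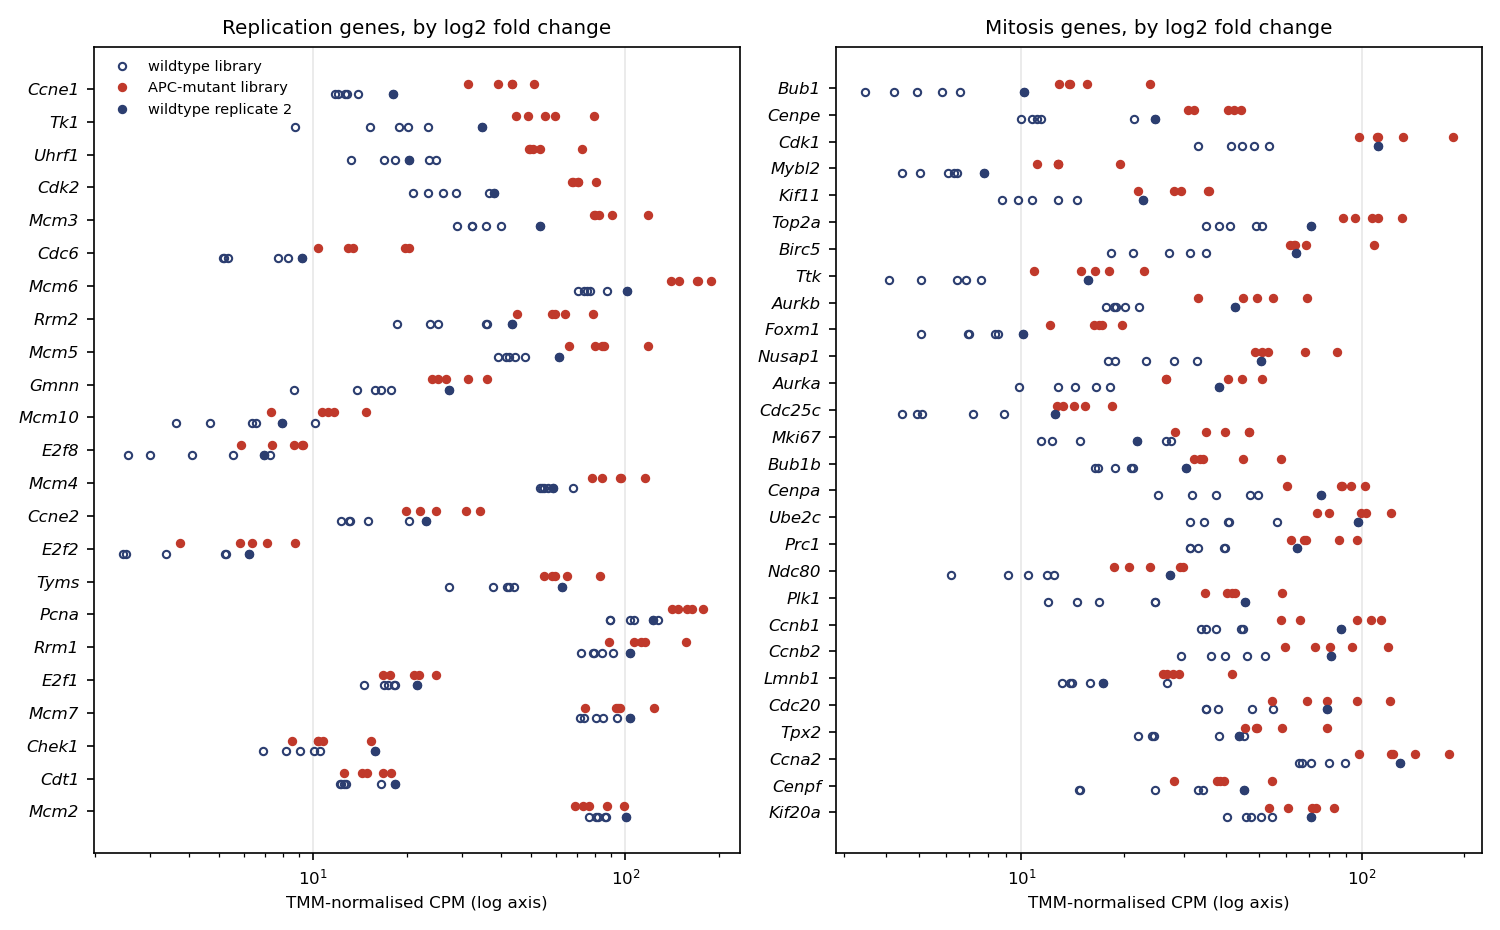
TMM-normalised CPM (log axis) of each of the 51 genes in each library, ordered by log2 fold change, with wildtype replicate 2 filled. For mitosis genes such as Cdk1 the filled wildtype point (112 CPM) sits inside the APC-mutant range of 98.0 to 185 CPM, apart from the other wildtype libraries.

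In the mitosis class all 8 genes of entry kinases and cyclins rose, by 0.67 to 1.20 log2 units. Cdk1, the kinase that starts mitosis (ENSMUSG00000019942.14, chromosome 10, 69170976 to 69188768), had APC-mutant values of 98.0, 112, 111, 185 and 133 CPM. The wildtype libraries had a lowest value of 33.0, a median of 46.3 and a highest of 112 CPM. The highest wildtype value was that of replicate 2, which reached into the APC-mutant range, and the rise was 1.20 ± 0.27 (edgeR adjusted p = 0.00166). Without wildtype replicate 2 it was 1.53.

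Ccnb1, encoding cyclin B1, the partner of CDK1 (ENSMUSG00000041431.17, chromosome 13, 100915158 to 100923078), had APC-mutant values of 58.1, 66.1, 96.6, 114 and 107 CPM. Its wildtype values had a lowest of 33.8, a median of 40.8 and a highest of 87.0 CPM, again in replicate 2. The rise was 0.91 ± 0.25 (edgeR adjusted p = 0.00646). Ccnb2, encoding cyclin B2, had the highest level per length of the mitosis genes (55.8 and 31.0 CPM per kilobase) and rose by 0.85 ± 0.24. Ccna2, encoding cyclin A2, which acts in S phase and G2, rose by 0.67 ± 0.19 and shares 12.5% of its exonic bases with another gene. The kinases Aurka, Aurkb and Plk1, which build the spindle and correct its attachments, rose by 1.04, 1.10 and 0.91. Cdc25c, the phosphatase that activates CDK1, rose by 1.04 without overlap of the groups, and 12.7% of its exonic bases lie inside another gene.

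The promoters of mitosis genes are known for CHR elements bound by the MuvB complex and for paired CCAAT boxes. Those of Cdk1, Ccnb2, Top2a and Cdc20 are shown in the same way as before, and each held a CHR form and a CCAAT box. They are examples, and members without a CHR form are named after them.
Cdk1 (GRCm38.p6, chr10:69352913-69353092, minus strand): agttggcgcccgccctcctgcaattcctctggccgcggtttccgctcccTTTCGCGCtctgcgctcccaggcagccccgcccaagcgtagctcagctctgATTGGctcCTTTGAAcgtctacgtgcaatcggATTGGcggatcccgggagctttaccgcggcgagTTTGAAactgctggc
Ccnb2 (GRCm38.p6, chr9:70421555-70421734, minus strand): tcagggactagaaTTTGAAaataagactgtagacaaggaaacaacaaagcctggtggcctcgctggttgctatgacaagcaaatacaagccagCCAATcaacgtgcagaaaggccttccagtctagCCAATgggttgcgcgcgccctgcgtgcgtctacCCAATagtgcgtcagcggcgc
Top2a (GRCm38.p6, chr11:99024190-99024369, minus strand): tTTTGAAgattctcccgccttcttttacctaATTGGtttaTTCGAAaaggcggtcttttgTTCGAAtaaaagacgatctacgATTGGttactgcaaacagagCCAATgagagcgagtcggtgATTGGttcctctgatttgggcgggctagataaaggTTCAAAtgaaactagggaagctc
Cdc20 (GRCm38.p6, chr4:118437344-118437523, minus strand): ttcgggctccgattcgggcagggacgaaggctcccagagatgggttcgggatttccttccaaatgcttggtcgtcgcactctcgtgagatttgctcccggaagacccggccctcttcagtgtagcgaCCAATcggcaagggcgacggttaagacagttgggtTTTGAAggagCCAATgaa
Of the 21 mitosis windows 16 (76.2%) held a CHR form, against 19.4% of all genes and 3 of the 20 replication windows (15%). A CHR form and a CCAAT box together were in 15 windows (71.4%), against 7.7% of all genes. An E2F form was found in 1, that of Cdk1 (4.76%). The TCF/LEF motif was in 4 (19%), beside 16.2% of all genes, and in Cdk1 its match overlaps a CHR match. The windows of Birc5, Ccnb1, Cenpe, Mybl2 and Nusap1 held no CHR form, and all 5 of these genes rose. The Cenpf window held both elements, and Cenpf was not called.

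Both transcription factors of the class rose without overlap. Foxm1, the forkhead factor of mitosis genes (ENSMUSG00000001517.15, chromosome 6, 128339930 to 128353109), was at 12.1, 16.3, 17.3, 16.9 and 19.7 CPM in the APC-mutant libraries. In wildtype it ranged from 5.06 to 10.1 CPM with a median of 7.67. Its rise was 1.10 ± 0.19 (edgeR adjusted p = 0.000175). Mybl2, encoding B-MYB, rose by 1.19 ± 0.19, from 4.46 to 7.76 CPM to 11.1 to 19.5 CPM.

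Of 7 kinetochore and checkpoint genes 6 rose. Bub1, a checkpoint kinase (ENSMUSG00000027379.15, chromosome 2, 127643036 to 127673785), had the largest change of the class at 1.44 ± 0.27 (edgeR adjusted p = 0.000331). It was at 13.8, 12.9, 13.8, 23.8 and 15.6 CPM in APC-mutant libraries and at 3.47 to 10.2 CPM, median 5.39, in wildtype libraries. Cenpe, a kinetochore motor, rose by 1.35 ± 0.24, also without overlap. Bub1b, Ttk, Ndc80 and Cenpa, encoding checkpoint and kinetochore proteins and the centromeric histone, rose by 0.92 to 1.12. Cenpf, a large kinetochore protein, was at 28.2 to 54.4 CPM in APC-mutant and 14.7 to 45.1 CPM in wildtype libraries and was the 1 mitosis gene not called (0.51 ± 0.27, edgeR adjusted p = 0.125). Without wildtype replicate 2 it passed at 0.70 (edgeR adjusted p = 0.031).

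All 6 spindle and cytokinesis genes rose. Kif11, the motor that separates spindle poles, Birc5, encoding survivin, and the microtubule binder Nusap1 rose by 1.18, 1.16 and 1.09. Prc1, which bundles the midzone and shares 11.1% of its exonic bases with another gene, rose by 0.93. Tpx2, an activator of Aurora A, rose by 0.77 without overlap, but against the ROSAE libraries alone it was at 0.44 and not called (edgeR adjusted p = 0.113). Kif20a, a cytokinesis motor, had the smallest rise of the class at 0.41 ± 0.15 (edgeR adjusted p = 0.0331), and exons of Cdc23 and other genes cover 29.3% of its exonic bases. The call was lost on leaving out APC-mutant replicate 4, 5 or 6, or one of wildtype replicates 1, 3, 4 and 5, at 0.33 to 0.39. Kif20a was also not called with upper-quartile scaling, library totals only, endocrine genes left out or a replicate block. With either wildtype prefix alone it was not called either, and it lost the call in 13 of 25 alternative analyses. Cdc20 and Ube2c, an activator and an E2 enzyme of the anaphase-promoting complex, rose by 0.80 and 0.93, and both overlapped between the groups. Tnnc2 covers 22.8% of the exonic bases of Ube2c, and Cdc20 was not called against the ROSAE libraries alone (0.72, edgeR adjusted p = 0.0536).

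Top2a, the topoisomerase that untangles sister chromatids (ENSMUSG00000020914.18, chromosome 11, 98883769 to 98915015), gave the smallest adjusted p of the class. Its APC-mutant values were 87.9, 107, 95.9, 132 and 112 CPM, and it was at 34.8 to 71.1 CPM, median 45.1, in wildtype libraries. The groups did not overlap, and the rise was 1.17 ± 0.17 (edgeR adjusted p = 4.32e-05). Mki67, the proliferation marker Ki-67 (ENSMUSG00000031004.9, chromosome 7, 135291513 to 135318090), was at 39.7, 28.2, 34.9, 46.5 and 46.5 CPM in APC-mutant libraries. In wildtype it was at 11.4 to 27.5 CPM with a median of 18.4, and the rise was 1.03 ± 0.24 (edgeR adjusted p = 0.00195). The highest wildtype value of Mki67 was that of replicate 6, and against the ROSAE libraries alone the rise was 0.54 (edgeR adjusted p = 0.0497). Lmnb1, encoding lamin B1 of the nuclear envelope, rose by 0.84 ± 0.20, and against the ROSAE libraries alone it was at 0.57 and not called (edgeR adjusted p = 0.12).

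Many members were highest in the same libraries. Averaged over the 28 mitosis genes, log2 CPM was 5.19, 5.33, 5.47, 5.93 and 5.63 for the APC-mutant libraries in replicate order. For the wildtype libraries the same mean was 4.22, 5.27, 4.06, 4.12, 4.50 and 4.63. The second value, of wildtype replicate 2, lay above APC-mutant replicate 1. The mean of the 23 replication genes was 5.07, 5.33, 5.32, 5.67 and 5.34 in the APC-mutant libraries and 4.41, 5.0, 4.42, 4.35, 4.47 and 4.66 in the wildtype libraries, without overlap. Wildtype replicate 2 was the highest wildtype library for 25 of 28 mitosis and 18 of 23 replication genes, against 21.4% of all tested genes. APC-mutant replicate 5 was the highest of its group for 26 and 19 genes, against 29.3% of all tested genes.

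These are the deepest libraries of their groups, at 25414443 and 27280761 counts. Wildtype replicate 2 also had the lowest share of endocrine markers among wildtype libraries (6.16%) and the lowest share of dissociation stress genes of all libraries (0.145%). With every library thinned to 15740857 counts, 27 mitosis and 17 replication genes rose, as at full depth. Both of these deepest libraries were also left out, because they had the highest mitosis means of their groups. Then 27 mitosis and 16 replication genes rose, with medians of 1.13 and 0.73. Since the choice used the values of the members, these results are no independent check. Against the ROSAJC wildtype libraries alone 24 mitosis and 16 replication genes rose, and against the ROSAE libraries alone 23 and 14. Besides Kif20a, the calls of Aurka (0.91), Ndc80 (0.83) and Rrm1 (0.35) were lost in the first of these, and those of Tpx2, Cdc20, Lmnb1, E2f8 (0.72), Mcm10 (0.59) and Ccne2 (0.70) in the second. Between the ROSAE and ROSAJC libraries themselves edgeR called 0 of 51 members (0.00476% of 21018 genes were called), with 1 member and 1270 of all genes at an unadjusted p under 0.05. DESeq2 and limma also called 0 members, and over all genes DESeq2 called 30 and limma 0. Since no prefix occurs in both genotypes, effects of genotype and of any batch that follows the prefix cannot be told apart.

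**Figure D4:**
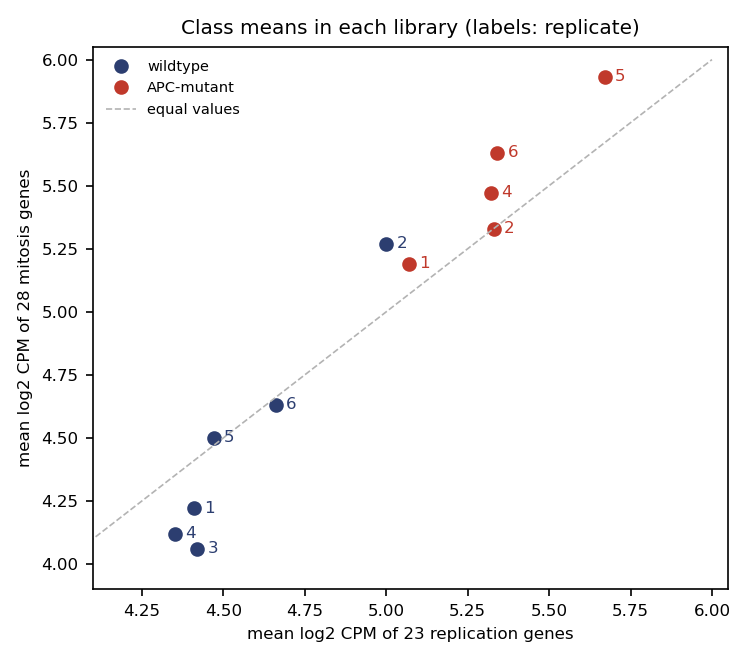
Mean log2 CPM of the 28 mitosis genes against that of the 23 replication genes in each library, labelled by replicate number. Wildtype replicate 2 (5.0 and 5.27) sits next to APC-mutant replicate 1 (5.07 and 5.19), and the other wildtype libraries reach at most 4.66 on either axis.

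Other genes of the same processes were counted in lists. Of 63 further genes of spindle and chromosome segregation 45 rose and none fell, with a median of 0.82. Kif15, a spindle motor, rose by 1.74 ± 0.14 (edgeR adjusted p = 1.64e-07) and Bora, an activator of the Aurora A and PLK1 kinases, by 1.36 ± 0.18. Of 46 further genes of origins and the replisome 13 rose, 3 fell and 30 were not called, with a median of 0.30, a share called higher near the background of 30.7%. Dbf4, the activator of the CDC7 kinase, rose by 1.15 ± 0.15 and Rpa1, a single-strand binding protein, by 0.71 ± 0.13. Rfc3, a clamp loader subunit, and Orc2, an origin recognition subunit, fell by 0.52 and 0.37 on the log2 scale. Of the exonic bases of Orc2 29.8% lie inside another gene. Its call was lost in 3 of 25 alternative analyses, among them leaving out APC-mutant replicate 1 (-0.295).

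Of 16 nucleotide and histone supply genes 4 rose and 4 fell, with a median of 0.02, no more in either direction than the background of 30.7% higher and 28.5% lower. Dck, encoding deoxycytidine kinase, rose by 0.92 ± 0.14. Gart, an enzyme of purine synthesis, Rrm2b, the reductase subunit induced by p53, and Chaf1a, of the chromatin assembly factor, fell by 0.64, 0.56 and 0.34. Another gene covers 52.5% of the exonic bases of Chaf1a and 19.7% of those of Gart. The call of Chaf1a was lost in 2 of 25 alternative analyses, and its value was -0.15 at its weakest. Of 18 cyclin and mitotic kinase regulators 6 rose and 1 fell, with a median of 0.24, a share called higher near the background of 30.7%. Cks2 and Skp2, subunits that help cyclin kinases and the breakdown of p27, rose by 0.94 and 0.91, and Cdc25b, a phosphatase that activates CDK1, fell by 0.60.

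Among 13 tested E2F and DREAM factors 5 rose and 3 fell, and the median was 0.08. The share called in either direction was near the 59.2% of all tested genes. E2f7, the repressor most like E2f8, rose by 1.45 ± 0.18, from 6.12 to 11.7 CPM to 21.1 to 26.7 CPM. E2f3, an activator, rose by 1.31 ± 0.18, while E2f1 was not called. Lin52, a subunit of the MuvB core that the DREAM repressor and the B-MYB activator share, fell by 1.03, from 30.2 to 43.5 CPM to 12.4 to 20.9 CPM. Rbl2, encoding the pocket protein p130 of the DREAM repressor in resting cells, fell by 0.57, also without overlap, and E2f6, a repressor, fell by 0.53. Another gene covers 21% of the exonic bases of Rbl2, and the call of E2f6 was lost in 1 of 25 alternative analyses.

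Of 16 tested brakes and D cyclins 7 rose and 3 fell, and the median was 0.11. Here too the share called in either direction was near 59.2%. Cdkn1a, encoding the kinase inhibitor p21, was at 894 to 1496 CPM in APC-mutant and 39.3 to 107 CPM in wildtype libraries, a rise of 4.08 ± 0.26. Cdkn2b, encoding p15, rose by 2.55, Btg1 by 1.62, Cdkn2c by 1.15, Rb1 by 1.03 and Trp53 by 0.79. Ccnd1, encoding cyclin D1, rose by 1.33 and shares 23.4% of its exonic bases with another gene. Cdkn1c, encoding p57, which acts as pituitary progenitors leave the cycle, fell by 1.34, and Btg2 and Ccnd2 fell by 1.07 and 0.41. Another gene covers 30.7% of the exonic bases of Cdkn1c, 14.9% of those of Rb1 and 12.7% of those of Cdkn2c. The call of Cdkn2c was lost in 1 of 25 alternative analyses. Ccnd2 was no longer called in 6 of 25 alternative analyses. Among them were those without APC-mutant replicate 5 (-0.31), APC-mutant replicate 6 (-0.35) or wildtype replicate 1 (-0.39).

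**Figure D5:**
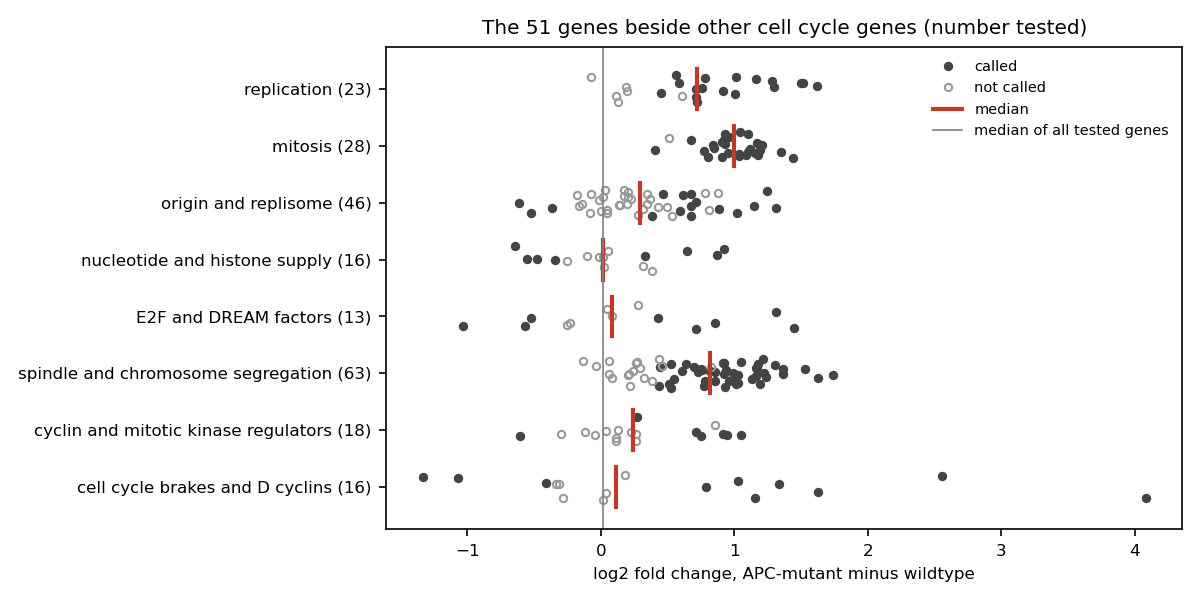
Log2 fold change of every tested gene in the replication and mitosis classes and in 6 further lists, filled where called, with a red bar at each median. The mitosis class and the spindle and chromosome segregation list, at medians of 0.997 and 0.82, hold no called fall, and Cdkn1a stands at 4.08.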

How the data were processed

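Messenger RNA from sorted mouse pituitary cells was amplified and sequenced as read pairs, per the labels' protocols. The authors deposited unnormalised gene counts, made with featureCounts 2.0.1 over GENCODE M33 on GRCm39, per the file headers. Trim Galore 0.6.5, STAR 2.7.9a and DESeq2 are listed in the submitters' processing notes. Pairs were counted without strand and for every gene they overlapped, per the file headers, so genes with shared exons include each other's fragments. The deposited table also gives each gene's exonic length, per the file headers, which served for CPM per kilobase.

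Symbols matched 91.23% of identifiers and all 51 members. From the counts, edgeR 4.0.16 (R 4.3.3) was run with filterByExpr, TMM and the quasi-likelihood test. The SE came from dividing the size of the fold change (log2) by the root of its F statistic. CPM used TMM-scaled totals. Median and range of a list carry no test. On simulated counts 100 genes were changed by 1 log2 unit and 100 by 2, and 64% and 93% of these were called. False calls were 10 among 167 calls over 20214 genes. Far fewer genes changed there than the 59.2% called here, so these rates need not hold for the real comparison. A count of 0 allows up to 3 counts, or 0.11 to 0.191 CPM, and covers counting error only. No library pair of a genotype agreed within sampling noise (chi-square per degree of freedom of at least 13.4).

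Members and lists were chosen with earlier results of these data known. Named in full were, per class, the 4 largest and 4 smallest changes, the 4 highest levels per length, members not called and 8 common markers. Other members are given more briefly. From each further list the 2 smallest p-values and up to 3 calls against the list's direction were named, and all calls among brakes. A result for 1 gene that this rule names is not reported here. Alternatives covered scaling, DESeq2 1.42.0, limma 3.58.1, filters, wildtype prefix, a replicate block and leaving out each library. Promoter sequences and their coordinates are RefSeq's on GRCm38.p6, and gene coordinates are those of the deposited table.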

Additional observations from a re-analysis of the deposited data

Results flagged for a closer look

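A single library stood far from the others of its group for 20 of 106 combinations of a member or class mean and a genotype, by Dixon's criterion. Chance flags about 1 in 20 groups. Of these flags 11 fell on wildtype replicate 2, which was the highest wildtype library for each gene concerned. Among mitosis genes they were Cdk1 at 111.8 CPM (next highest 53.4), Ccnb1 at 87.04 CPM (44.8), Ccna2 at 129.7 CPM (89.5), Aurka at 38.14 CPM (18.2), Aurkb at 42.38 CPM (22.1), Bub1b at 30.56 CPM (21.3), Ttk at 15.72 CPM (7.63), Ndc80 at 27.27 CPM (12.4), Prc1 at 64.73 CPM (39.6) and Birc5 at 64.01 CPM (34.9). The replication gene was Ccne1 at 17.99 CPM (13.9).

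APC-mutant replicate 5 was the highest library of its group for 6 flagged genes. They were Mcm3 at 118.6 CPM (90.5), Uhrf1 at 72.71 CPM (53.4), Mybl2 at 19.46 CPM (12.8), Bub1 at 23.84 CPM (15.6), Birc5 at 109.1 CPM (68.8) and Lmnb1 at 41.7 CPM (29.0). Cdk2 was highest in APC-mutant replicate 4 at 80.28 CPM (70.6). Wildtype replicate 6 was the highest for Mcm4 at 67.74 CPM (58.5) and for Lmnb1 at 26.88 CPM (17.4).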

How the results depend on the processing

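Across 25 alternatives the 51 members gave 1275 values, of which 1222 kept their direction and side of the threshold, 43 lost and 4 gained the call and 6 changed sign. Sign changes were those of Mcm2 (0.00737 against the ROSAE libraries alone), Cdt1 (-0.000399 against the ROSAJC libraries alone, -0.0802 with upper-quartile factors), Chek1 (-0.0651 with upper-quartile factors, and -0.0147 to 0.301 when each library was left out, lowest without APC-mutant replicate 5) and Mcm7 (-0.0102 with upper-quartile factors). Calls of higher mitosis genes ranged from 23 to 27 and of replication genes from 13 to 17, and when each library was left out in turn from 26 to 28 and from 15 to 18. With upper-quartile factors 1 replication gene, Mcm2, was called lower. The labels do not say whether replicate numbers pair the libraries. Deviations of same-numbered libraries correlated at -0.15 to 0.049, which cannot settle it, since paired libraries need not share deviations. With the replicate block 10577 genes, 26 mitosis and 15 replication genes were called. Between the wildtype prefixes 1 gene was called, 30 with DESeq2, 26 without a filter, 0 with limma voom and 0 to 3 when each wildtype library was left out. The stricter filter was not run for that comparison. E2f2 and E2f8, at no more than 9.27 CPM in any library, were measured on the fewest reads. Leaving out wildtype replicate 2 with APC-mutant replicate 5, thinning and a covariate of Y-linked expression were chosen after seeing the data.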
